A study of Homo sapiens with 15 samples.

Results

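The aminoacyl-tRNA synthetases are the enzymes that load each transfer RNA with its amino acid. The genes described here were taken from a list of 36 gene symbols of this family. The 20 symbols without a final 2 make up the cytosolic set, and the 16 symbols with a final 2 (FARS2, YARS2 and so on) make up the mitochondrial set. All 36 were found among the 19531 gene names of the count tables. The symbols are those of the tables, so that CARS, for example, is the gene now called CARS1. SARS2 held only 85 reads in all 15 libraries and was not tested, which left 35 members with a test, of which 20 were cytosolic and 15 mitochondrial.

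U2OS, a human osteosarcoma cell line, was grown unsynchronised and given 4-thiouridine and EdU together for 45 min, although the title given to the series calls the cells synchronised. EdU marks replicating DNA, and the cells were fixed with glyoxal and methanol, stained for EdU and DNA content, and sorted into G1, Early_S, Late_S and G2 (called G2/M in the sorting protocol). SLAM-seq alkylates the RNA, so that 4-thiouridine is read as C instead of T, and a read with T>C conversions counts as newly made RNA. There were 3 libraries for each of the 4 phases and 3 for No_alkylation, in which the chemical step was left out. All groups came from the same line and none carried a genetic change. The labels do not say which phase the No_alkylation cells came from, nor whether replicates were separate cultures, so p-values measure only the spread between these libraries, which may be technical.

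Each enzyme recognises 1 amino acid, and the cytosol and the mitochondrion mostly use separate nuclear genes for the task. GARS and KARS, counted as cytosolic here by their symbols, also encode the mitochondrial glycyl and lysyl enzymes, and EPRS joins the glutamyl and prolyl enzymes in 1 protein. Several cytosolic enzymes sit in the multisynthetase complex, held together by the scaffold proteins AIMP1, AIMP2 and EEF1E1. Many cytosolic synthetase genes are known targets of ATF4, the transcription factor of the amino acid response, which binds composite C/EBP-ATF elements near their start sites.

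The libraries held 16096695 to 21803972 reads in the counted regions near transcript 3′ ends. T>C reads numbered 1812606 to 4037464 in the 12 alkylated libraries and 175212 to 182253 in No_alkylation. Their share of all reads averaged 22.3% ± 0.740 for G1, 18.4% ± 0.516 for Early_S, 10.0% ± 0.0870 for Late_S and 10.1% ± 0.336 for G2, with 1.01% ± 0.0179 in No_alkylation (SD, n = 3 each). The 4 blood markers summed to at most 0.330 counts per 1000000 reads (CPM) in any library, and the 6 osteosarcoma and mesenchymal markers to at least 4145 CPM. The 4 epithelial markers summed to 719 to 993 CPM in G1 and to 387 to 714 CPM in the other groups, and their part in the results was not tested. A cytosolic member had 909 to 9120 reads and 37 to 1520 T>C reads in an alkylated library. A mitochondrial member had at most 1356 reads and 671 T>C reads, with medians of 349.0 and 45.5, so the mitochondrial values carry wider counting error.

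All reads together measure the message that has accumulated, called steady-state here, and were compared as counts scaled between libraries. Early_S cells had more steady-state message than G1 cells for 12 of 20 cytosolic synthetases, among them CARS, AARS, YARS, GARS, MARS and EPRS, with log2 changes of 0.22 to 1.10. FARSA and HARS were lower, and 6 cytosolic members were not called. Of the 15 mitochondrial members tested, EARS2 and VARS2 were higher and YARS2 lower. Across all 13755 genes tested, 12.5% were called higher and 11.8% lower. The median log2 change was 0.34 over the cytosolic members and 0.15 over the mitochondrial ones, against -0.0041 over all genes tested. Calls here and below are edgeR quasi-likelihood tests at a Benjamini-Hochberg adjusted p under 0.05 over all genes tested. CPM is a share of the RNA in a library, and in these sorted populations fewer expressing cells and less RNA per cell cannot be told apart.

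**Figure D1:**
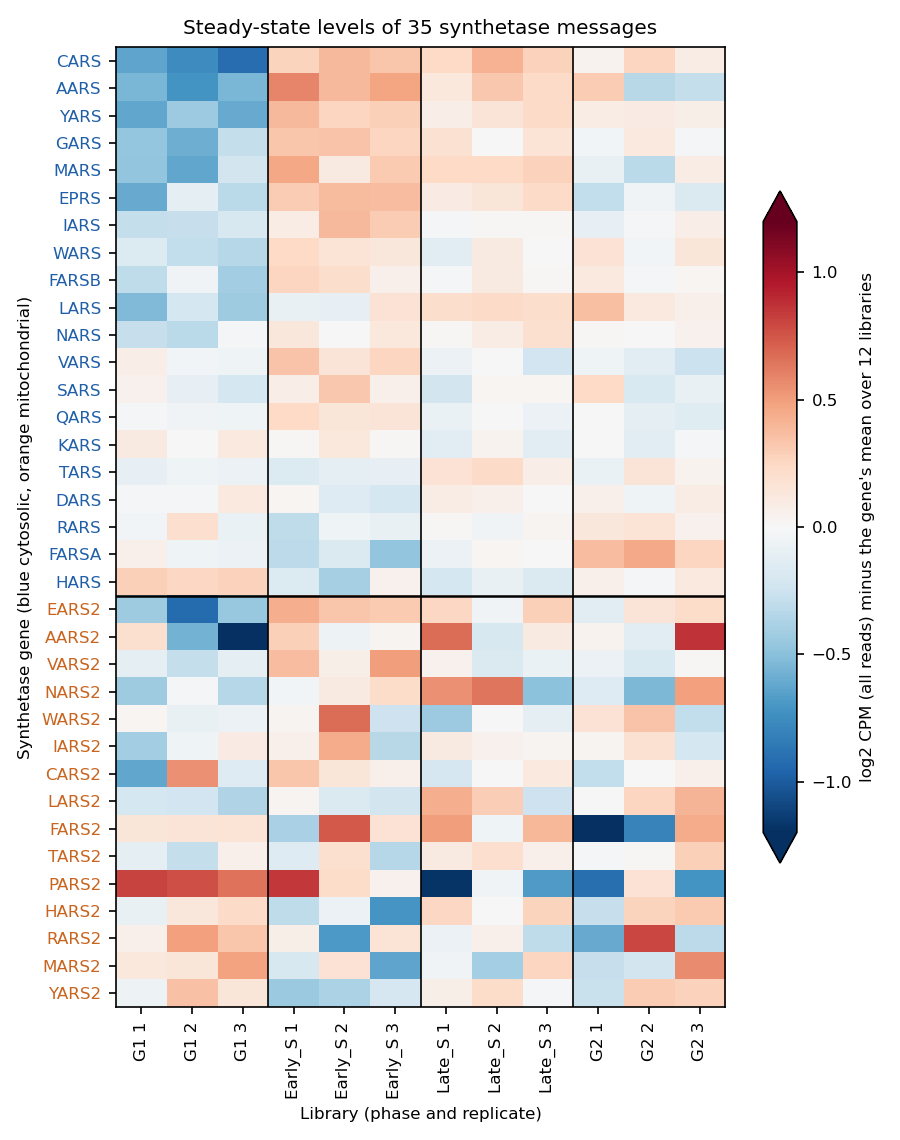
Steady-state levels of the 35 tested synthetases in the 12 phase libraries, as log2 CPM minus the gene's own mean (colour, with colours at either end of the scale also standing for values beyond it). Rows are genes, cytosolic above mitochondrial, ordered by the Early_S to G1 ratio, and columns are libraries in cell cycle order. The upper cytosolic rows are blue in all 3 G1 libraries and red in all 3 Early_S libraries, while the lower rows are not.

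CARS, the cysteinyl enzyme, had 210, 229 and 220 CPM in Early_S, against 112, 103 and 92.4 CPM in G1. Its log2 change was 1.10 ± 0.09 (SE, adjusted p = 3.98e-12). AARS, the alanyl enzyme, had 163, 141 and 150 CPM in Early_S, against 73.5, 65.3 and 73.8 CPM in G1, a log2 change of 1.09 ± 0.12 (adjusted p = 5.29e-09). For both genes every Early_S library lay above every G1 library. YARS, the tyrosyl enzyme, had 281, 256 and 261 CPM in Early_S, against 139, 158 and 141 CPM in G1, a log2 change of 0.87 ± 0.08. GARS, the glycyl enzyme, had 281, 283 and 268 CPM in Early_S, against 162, 149 and 183 CPM in G1, a log2 change of 0.75 ± 0.09. Of the GARS reads, 17.6% also matched elsewhere in the genome, and of the IARS reads 40.9%; with such reads left out, both calls held. MARS, the methionyl enzyme, had 283, 220 and 255 CPM in Early_S, against 147, 133 and 176 CPM in G1, a log2 change of 0.73 ± 0.10. In YARS, GARS and MARS too, the libraries of the phases did not overlap.

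EPRS had 127, 133 and 133 CPM in Early_S, against 67.1, 94.8 and 81.8 CPM in G1, a log2 change of 0.69 ± 0.11. The isoleucyl enzyme IARS changed by 0.52 ± 0.09 and the tryptophanyl enzyme WARS by 0.45 ± 0.10. FARSB, the beta subunit of the phenylalanyl enzyme, rose by 0.43 ± 0.11. Its partner FARSA, the alpha subunit of the same enzyme, fell: it had 92.1, 102 and 82.3 CPM in Early_S, against 120, 111 and 109 CPM in G1, a log2 change of -0.30 ± 0.10 (adjusted p = 0.0322). So the messages of the paired subunits were called in opposite directions. LARS (leucyl) at 0.39 ± 0.13, NARS (asparaginyl) at 0.29 ± 0.09 and QARS (glutaminyl) at 0.22 ± 0.07 were called by smaller margins. HARS, the histidyl enzyme, had 74.7, 63.1 and 86.9 CPM in Early_S, against 102, 99.2 and 102 CPM in G1, a log2 change of -0.43 ± 0.12 (adjusted p = 0.00601). The members not called were VARS (valyl, 0.25 ± 0.10), SARS (seryl, 0.24 ± 0.12), KARS (-0.03 ± 0.07), TARS (threonyl, -0.05 ± 0.08), DARS (aspartyl, -0.14 ± 0.09) and RARS (arginyl, -0.18 ± 0.09). In all 17 called members the libraries of the 2 phases did not overlap, which a call from 3 libraries per phase makes likely. The share of all genes without overlap was not counted, so this adds no support to the calls.

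Among the mitochondrial members, EARS2, the glutamyl enzyme, had 56.9, 52.8 and 52.1 CPM in Early_S, against 31.1, 21.9 and 30.4 CPM in G1. Its log2 change of 0.96 ± 0.16 (adjusted p = 1.87e-05) lay among those of the most changed cytosolic members. VARS2, the valyl enzyme, had 59.9, 48.4 and 65.7 CPM in Early_S, against 42.9, 37.8 and 42.7 CPM in G1 (log2 change 0.50 ± 0.15, adjusted p = 0.0131). YARS2, the tyrosyl enzyme, had 37.3, 39.1 and 44.3 CPM in Early_S, against 49.0, 65.4 and 56.4 CPM in G1 (log2 change -0.50 ± 0.16, adjusted p = 0.015). The mitochondrial tyrosyl message was thus called lower and the cytosolic one higher in the same libraries. The other 12 tested mitochondrial members had log2 changes between -0.46 (MARS2, SE 0.32) and 0.58 (AARS2, SE 0.51) and were not called.

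Leaving out 1 library at a time ended 7 of these 17 calls. FARSA lost its call without G1 replicate 1 or 3 or Early_S replicate 1 or 3 (adjusted p 0.0528 to 0.182), NARS without G1 replicate 1 or 2 or Early_S replicate 1 or 3 (0.0528 to 0.100), and QARS without any 1 of the G1 libraries or Early_S replicate 1 (0.0526 to 0.147). LARS lost it without G1 replicate 1 or 3 or Early_S replicate 3 (0.0710 to 0.136), VARS2 without G1 replicate 2 or Early_S replicate 1 or 3 (0.0529 to 0.0941), YARS2 without G1 replicate 2 or Early_S replicate 1 (0.0545 to 0.0905), and HARS without Early_S replicate 2 (0.0695). AARS, CARS, EPRS, FARSB, GARS, IARS, MARS, WARS, YARS and EARS2 kept theirs under every alternative run.

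Of the cytosolic members, 13 have been reported as ATF4 targets in mouse cells, and 10 of these 13 were called higher in Early_S than in G1 and 0 lower, with a median log2 change of 0.52. All counts by group here are to be read against the 12.5% called higher and 11.8% called lower among all genes tested. The 3 not called were SARS, TARS and VARS. Of the 7 cytosolic members outside that list, FARSB and QARS were called higher and FARSA and HARS lower, with a median of -0.14. Of the 8 enzymes of the multisynthetase complex, 5 were called higher (EPRS, IARS, LARS, MARS and QARS) and 0 lower, with a median of 0.30, and of the 12 cytosolic members outside it 7 were called higher and 2 lower, with a median of 0.36. By enzyme class, as defined by the fold of the catalytic domain, 7 of 9 class I cytosolic members were called higher and 0 lower, and 4 of 10 class II members higher and 2 lower (FARSA and HARS). EPRS holds a domain of each class and was counted in neither.

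To show the promoters beside these levels, start-site windows of 300 bases (250 before to 50 after the start) were taken from RefSeq on GRCh38.p14 for the 30 members the table holds, 16 cytosolic and 14 mitochondrial. The letters TGATGNAA, the core of C/EBP-ATF composite elements, were searched on both strands, and 3.62% of the 35116 windows of all genes held them. They were found for 7 cytosolic members and 1 mitochondrial member, in these stretches of 30 bases with the matched letters in capitals, each written along the strand of its gene:

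AARS1: ttttctcgcagTTGCATCAgccaagttaga
CARS1: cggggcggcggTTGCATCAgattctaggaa
GARS1: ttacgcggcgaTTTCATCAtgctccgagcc
IARS1: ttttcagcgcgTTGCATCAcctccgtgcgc
MARS1: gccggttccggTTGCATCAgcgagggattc
NARS1: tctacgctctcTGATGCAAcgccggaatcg
TARS1: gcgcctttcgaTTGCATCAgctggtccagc
YARS2: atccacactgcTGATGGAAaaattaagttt

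The stretches lie at chr16:70289675-70289704 (AARS1, minus strand), chr11:3057407-3057436 (CARS1, minus), chr7:30594834-30594863 (GARS1, plus), chr9:92293692-92293721 (IARS1, minus), chr12:57488053-57488082 (MARS1, plus), chr18:57621804-57621833 (NARS1, minus), chr5:33440956-33440985 (TARS1, plus) and chr12:32756076-32756105 (YARS2, minus). In CARS1, GARS1, IARS1, MARS1, NARS1 and TARS1 the match began within 33 bases of the annotated start, and in AARS1 and YARS2 it began 187 and 197 bases before it. CARS1, GARS1 and TARS1 each have 2 windows in the table, 1 of which held the letters. Of the 10 cytosolic members called higher in Early_S that had a window, 6 held the letters, and of the 6 others with a window TARS1 alone did. EPRS1, FARSB, QARS1 and WARS1 were called higher and had none in their windows. LARS, YARS and VARS2 were also called higher, and like DARS, VARS and AARS2 they had no window to search. A member was counted if any of its windows held the letters, whereas the 3.62% for all genes is a share of windows. A match is a description of these letters and not a binding site. The 250 bases before the start are shown for AARS1 and GARS1, 2 of the genes called higher whose match lies wholly before the start, with the matched letters in capitals again:

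AARS1: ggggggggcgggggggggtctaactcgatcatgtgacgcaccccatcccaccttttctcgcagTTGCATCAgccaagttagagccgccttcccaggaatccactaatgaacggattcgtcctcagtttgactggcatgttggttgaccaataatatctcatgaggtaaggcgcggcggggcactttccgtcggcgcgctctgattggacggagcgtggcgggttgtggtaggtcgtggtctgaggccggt
GARS1: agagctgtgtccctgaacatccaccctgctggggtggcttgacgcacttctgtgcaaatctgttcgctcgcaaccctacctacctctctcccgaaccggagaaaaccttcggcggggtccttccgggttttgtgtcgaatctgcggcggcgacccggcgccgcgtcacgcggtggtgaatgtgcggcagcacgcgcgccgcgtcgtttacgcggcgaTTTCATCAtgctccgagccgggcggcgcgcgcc

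These are chr16:70289507-70289756 on the minus strand and chr7:30594628-30594877 on the plus strand. HARS and HARS2 stand head to head on chromosome 5, with annotated starts 85 bases apart, so both genes share the following 84 bases between the starts (chr5:140691371-140691454, plus strand, the direction of HARS2):

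HARS1 and HARS2: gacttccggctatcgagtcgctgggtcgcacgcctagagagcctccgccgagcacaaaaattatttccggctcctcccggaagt

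The searched letters were not in that stretch. HARS was called lower in Early_S than in G1 and HARS2, the mitochondrial histidyl enzyme, had a log2 change of -0.45 ± 0.23, which was not called (adjusted p = 0.174).

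Over all 4 phases, 20 of 35 members differed in steady-state level (F test), 16 of 20 cytosolic and 4 of 15 mitochondrial (EARS2, PARS2, VARS2 and YARS2), against 34.1% of all genes tested. The cytosolic members not called were DARS, KARS, RARS and SARS. Of the 16 called cytosolic members, 11 had their highest mean in Early_S. LARS, NARS and TARS had theirs in Late_S, HARS in G1 and FARSA in G2. Of the 4 called mitochondrial members, EARS2 and VARS2 were highest in Early_S, and PARS2 and YARS2 in G1.

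Between Late_S and Early_S, 1 member was called higher and 2 lower, against 6.99% and 4.25% of all genes tested. TARS had 298, 309 and 280 CPM in Late_S, against 236, 244 and 246 CPM in Early_S (log2 change 0.29 ± 0.08, adjusted p = 0.0134). VARS had 116, 122 and 104 CPM in Late_S, against 155, 136 and 146 CPM in Early_S (log2 change -0.35 ± 0.10, adjusted p = 0.0192), and QARS changed by -0.23 ± 0.07 (adjusted p = 0.0362). None of the 3 calls held throughout. TARS lost it without Late_S replicate 1 or 2 (0.0518 to 0.0747), VARS without Early_S replicate 1 or 3 or Late_S replicate 1 or 3 (0.0518 to 0.137), and QARS without Early_S replicate 1 or 3, without any 1 of the Late_S libraries, or with its most covered region alone (0.0559 to 0.191). Of the 3 calls, none was left without Late_S replicate 1, and 5 were made without G1 replicate 2 or Early_S replicate 2. Between G2 and Late_S edgeR called no member, against 0.145% of all genes tested; 4 members had an unadjusted p under 0.05, and DESeq2 called 1.

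G2 cells, compared with the same G1 libraries that served as the baseline for Early_S, had higher steady-state levels of 9 cytosolic members and of EARS2, and a lower level of PARS2, against 11.1% called higher and 10.0% called lower among all genes. CARS had 180, 208 and 186 CPM in G2, against 112, 103 and 92.4 CPM in G1, a log2 change of 0.90 ± 0.09 (adjusted p = 4.94e-10). YARS had 228, 230 and 225 CPM in G2, against 139, 158 and 141 CPM in G1 (0.64 ± 0.08). In both genes the G2 libraries stood above every G1 library. LARS had 95.9, 80.8 and 77.9 CPM in G2, against 51.3, 64.1 and 55.1 CPM in G1 (0.58 ± 0.13), and GARS changed by 0.46 ± 0.09. FARSA, which was lower in Early_S than in G1, had 148, 158 and 138 CPM in G2, against 120, 111 and 109 CPM in G1, a log2 change of 0.38 ± 0.10 (adjusted p = 0.00542). WARS changed by 0.36 ± 0.10 and EARS2 by 0.69 ± 0.16.

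AARS had 134, 85.6 and 88.6 CPM in G2, against 73.5, 65.3 and 73.8 CPM in G1 (0.53 ± 0.12), and without the high G2 replicate 1 its adjusted p was 0.0768. MARS changed by 0.33 ± 0.10, with overlapping libraries, and lost its call without G1 replicate 1 or 2 or G2 replicate 3 (0.0649 to 0.160). FARSB, at 0.29 ± 0.11 (adjusted p = 0.0499), lost it under 13 alternatives (0.0511 to 0.272). PARS2, the mitochondrial prolyl enzyme, had 3.44, 7.84 and 4.01 CPM in G2, against 12.5, 12.1 and 11.1 CPM in G1. Its log2 change of -1.22 ± 0.39 (adjusted p = 0.0191) lost its call without G1 replicate 1 or G2 replicate 1 or 3 (0.0635 to 0.0991).

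T>C reads, scaled against each other between libraries, show which messages took a larger or smaller part of the newly made RNA, called nascent here. In Early_S the nascent level of 6 cytosolic members was higher than in G1 (CARS, GARS, MARS, NARS, WARS and YARS) and that of no member was lower, against 3.69% called higher and 1.48% lower among the 11474 genes tested. No mitochondrial member was called by edgeR or by DESeq2, and 1 had an unadjusted p under 0.05. The median log2 change was 0.32 over the cytosolic members and -0.083 over the mitochondrial ones, against -0.011 over all genes tested. All 6 are on the list of reported ATF4 targets, which holds most of the cytosolic members. Whether ATF4 had a part in these or in the steady-state changes was not tested.

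WARS had 111, 143 and 117 CPM of T>C reads in Early_S, against 25.8, 32.8 and 28.3 CPM in G1, a log2 change of 2.09 ± 0.38 (adjusted p = 0.00047). CARS had 154, 154 and 168 CPM of T>C reads in Early_S, against 53.5, 43.6 and 35.7 CPM in G1, a log2 change of 1.84 ± 0.31 (adjusted p = 0.000204). The nascent libraries of the phases lay far apart in both genes. YARS had 171, 239 and 204 CPM of T>C reads in Early_S, against 85.6, 96.1 and 86.9 CPM in G1 (1.19 ± 0.24, adjusted p = 0.00226). GARS had 118, 111 and 117 CPM of T>C reads in Early_S, against 47.8, 50.2 and 58.6 CPM in G1 (1.14 ± 0.28, adjusted p = 0.0124). MARS changed by 1.09 ± 0.30 (adjusted p = 0.0303) and NARS by 0.61 ± 0.17 (adjusted p = 0.0299). AARS, called in the steady-state comparison, had 99.4, 90.2 and 86.4 CPM of T>C reads in Early_S, against 39.3, 72.0 and 49.5 CPM in G1. Its nascent log2 change of 0.78 ± 0.36 was not called (adjusted p = 0.305), although the libraries did not overlap.

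CARS, WARS and YARS kept their nascent calls under every alternative run. The other 3 depended on single libraries and on the scaling. GARS lost its call without G1 replicate 1 or 2 or Early_S replicate 1 or 3, and MARS without any 1 of the G1 or Early_S libraries. NARS lost it without G1 replicate 1 or 2 or Early_S replicate 1 or 3, or with its most covered region alone. When T>C reads were scaled by all reads of a library, the median change of all genes was -0.33, and the changes of GARS (0.82), MARS (0.78) and NARS (0.29) were not called. Over these alternatives the adjusted p ranged from 0.0536 to 0.0840 for GARS, from 0.0557 to 0.215 for MARS and from 0.0580 to 0.400 for NARS.

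**Figure D2:**
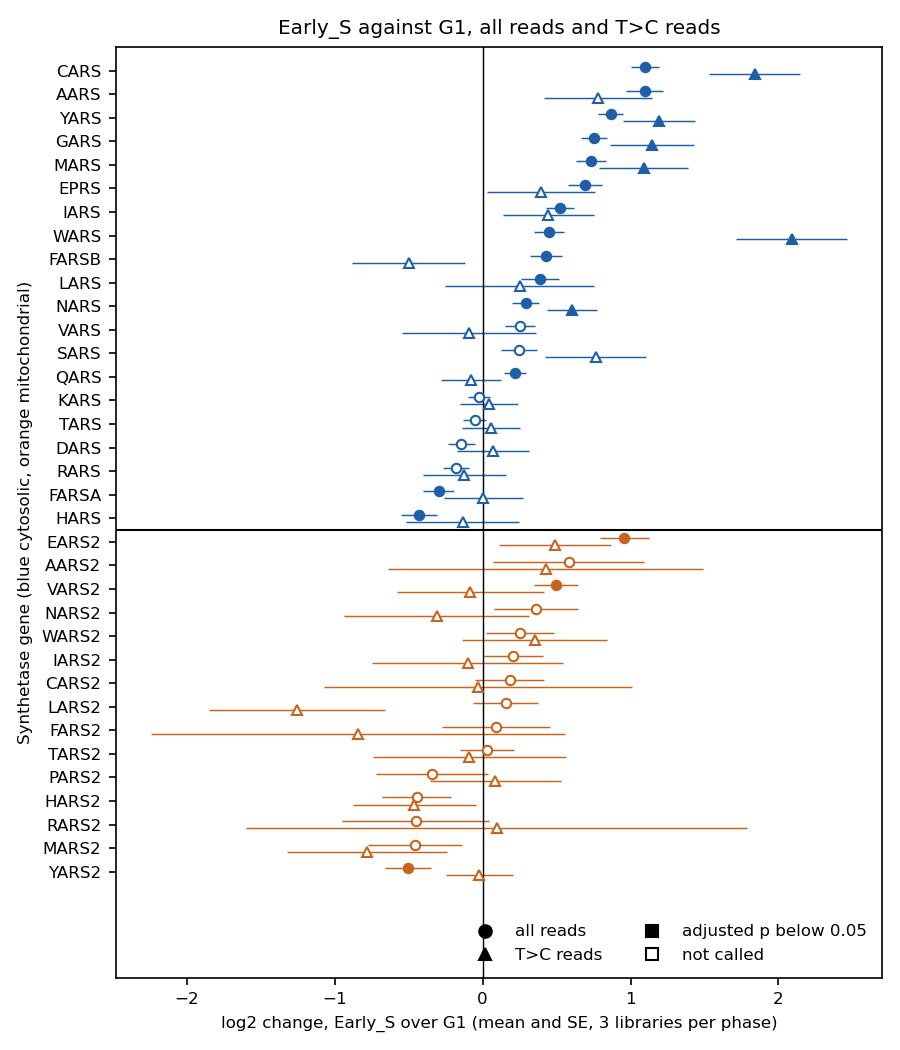
Log2 change of each tested synthetase in Early_S over G1, from all reads (circles) and from T>C reads (triangles), with the SE as bars; filled symbols have an adjusted p below 0.05. Filled triangles stand only in the cytosolic rows CARS, YARS, GARS, MARS, WARS and NARS, and WARS has the largest T>C change, at 2.09.

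Across the 4 phases, 6 members differed in nascent level by the F test, CARS, GARS, NARS, SARS, WARS and YARS, against 10.4% of all genes tested. SARS had 66.7, 57.6 and 61.9 CPM of T>C reads in G1, 90.9, 138 and 87.5 CPM in Early_S, 40.3, 40.3 and 59.1 CPM in Late_S and 55.7, 43.1 and 21.0 CPM in G2 (adjusted p = 0.0219). All 6 had their highest nascent mean in Early_S. WARS had 47.5, 50.4 and 29.8 CPM of T>C reads in Late_S, against 111, 143 and 117 CPM in Early_S, and was the 1 member called by edgeR between these phases (log2 change -1.54 ± 0.37, adjusted p = 0.0157). Of all genes tested, 1.81% were called lower and 1.72% higher there. That call ended without Early_S replicate 2 or 3 or Late_S replicate 3 (0.0505 to 0.0969). Other settings called more members: 2 without any 1 of the G2 libraries or without the low-count filter, 4 by DESeq2 and 18 with T>C reads scaled by all reads.

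Between G2 and G1, edgeR called no member in nascent level, against 7.30% of all genes tested; 2 members had an unadjusted p under 0.05, and DESeq2 called 0. With T>C reads scaled by all reads, 22 members were called, and 1 was called without G2 replicate 2 or 3. CARS, whose steady-state level was higher in G2, had 106, 34.0 and 68.3 CPM of T>C reads in G2, against 53.5, 43.6 and 35.7 CPM in G1 (log2 change 0.65 ± 0.31, adjusted p = 0.238). Those libraries overlapped. YARS had 136, 87.9 and 81.2 CPM of T>C reads in G2, against 85.6, 96.1 and 86.9 CPM in G1 (0.18 ± 0.25). Between G2 and Late_S edgeR called no member in nascent level either, against 0.0523% of all genes; 1 member had an unadjusted p under 0.05, and DESeq2 called 1.

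**Figure D3:**
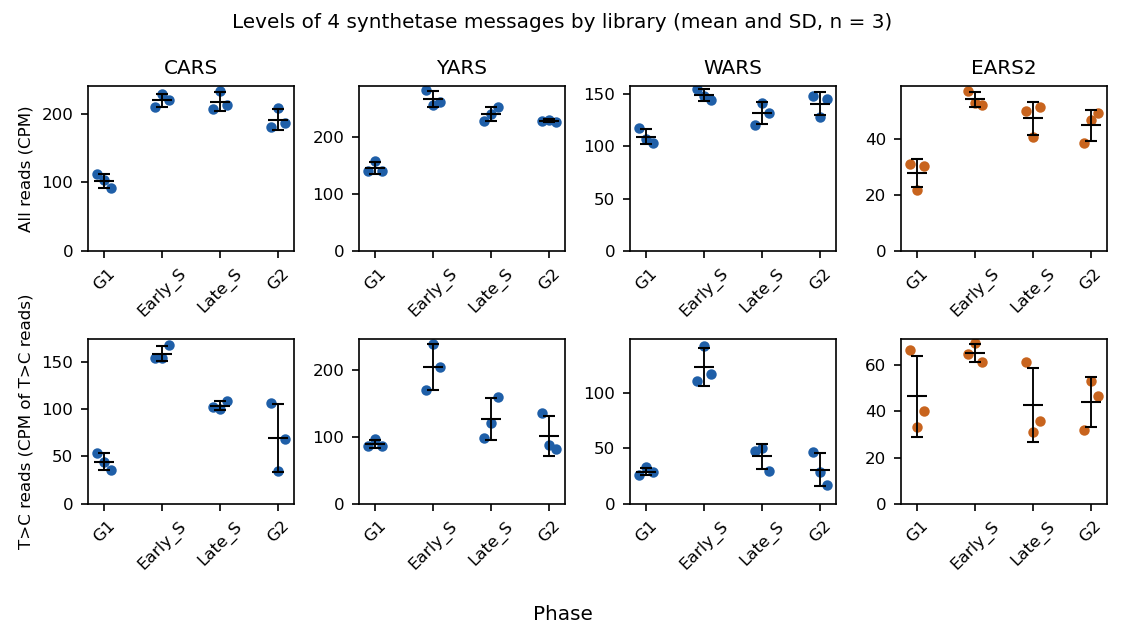
Levels of CARS, YARS, WARS and EARS2 by library in the 4 phases, from all reads (upper row, CPM) and from T>C reads (lower row, CPM of T>C reads); points are libraries and bars the mean and SD (n = 3). WARS T>C reads stand at 111 to 143 CPM in Early_S and at or below 50.4 CPM in the other phases, while its all-read level is 121 to 155 CPM in Early_S, Late_S and G2.

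Labelled share is the percentage of a gene's reads that carry T>C conversions. It was lower for the cytosolic than for the mitochondrial synthetases in all 12 phase libraries when reads were summed over the members. The cytosolic sum held 13.6% ± 0.480 T>C reads and the mitochondrial sum 33.3% ± 2.58 in G1. In Early_S the values were 11.99% ± 0.302 cytosolic and 23.5% ± 2.03 mitochondrial. They were 5.25% ± 0.111 cytosolic and 14.2% ± 0.817 mitochondrial in Late_S, and 5.18% ± 0.120 cytosolic and 11.8% ± 1.58 mitochondrial in G2 (SD, n = 3 each). No_alkylation held 0.594% ± 0.149 in the cytosolic and 0.463% ± 0.159 in the mitochondrial sum. The median gene, taken over the 11474 genes that passed the filter on T>C counts, had 28.2% for G1, 21.5% for Early_S, 10.4% for Late_S and 9.74% for G2. Genes with few reads pass that filter only where enough of them carry T>C conversions. The cytosolic sum lay below the median gene in all 12 phase libraries. The mitochondrial sum lay above it in 11 of 12, but in Early_S replicate 1 it was 23.0% against 23.2% for the median gene, and in G2 replicate 1 it was 10.004% against 9.99%. These sums weight members by their reads, unlike the median gene. All reads of a library, weighted in that way, averaged 22.3% T>C for G1, 18.4% for Early_S, 10.0% for Late_S and 10.1% for G2. Members share their libraries, and no test was made over the sets.

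**Figure D4:**
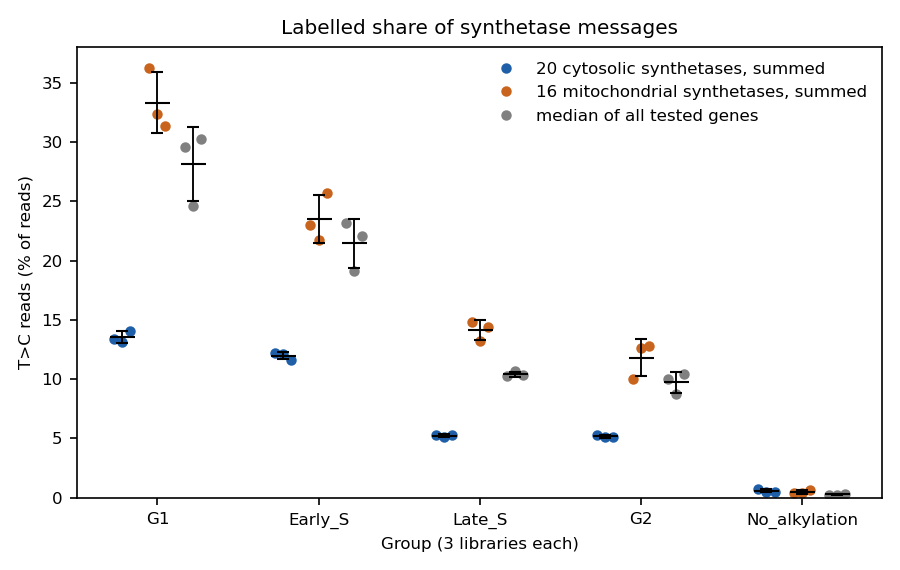
T>C reads as a percentage of reads, summed over the 20 cytosolic (blue) and the 16 mitochondrial (orange) synthetases, with the median of all tested genes (grey), for each library of the 5 groups; bars are the mean and SD (n = 3). The cytosolic points lie at 11.6% to 14.1% in G1 and Early_S and at 5.10% to 5.32% in Late_S and G2, below the mitochondrial points of the same phase, and all sets are below 1% in No_alkylation.

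The difference rests partly on 2 genes. PARS2 had T>C reads in 87.1% ± 10.96 of its reads for G1, 95.0% ± 4.78 for Early_S, 71.8% ± 23.7 for Late_S and 84.0% ± 7.01 for G2, against 0.152% ± 0.262 in No_alkylation (SD, n = 3 each). YARS2 had 55.7% ± 2.01 for G1, 62.7% ± 9.12 for Early_S, 34.6% ± 6.43 for Late_S and 18.6% ± 1.97 for G2, against 1.67% ± 2.03 in No_alkylation. Without both genes the mitochondrial sum was 25.7% (G1), 16.02% (Early_S), 9.48% (Late_S) and 9.27% (G2), a choice made after their values were seen. It then lay above the cytosolic sum and below the median gene in each phase. The median over members, in the middle library of each phase, was 12.2% for cytosolic and 32.3% for mitochondrial members in G1, and 11.3% and 17.4% in Early_S. It was 4.96% for cytosolic and 9.69% for mitochondrial members in Late_S, and 4.67% and 9.75% in G2. The cytosolic median was the lower in each phase, while the mitochondrial one was below the median gene in Early_S and Late_S and close to it in G2.

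HARS2, MARS2, PARS2 and YARS2 were above the median share of the same 11474 genes in all 12 phase libraries, and 9 mitochondrial members were so in some of them. These 9 include the untested SARS2, which was above the median in 1 G1 library, on 40 reads. FARS2 (phenylalanyl), TARS2 (threonyl) and VARS2 were above it in none. Counted as conversions per T base, HARS2, PARS2 and YARS2 were above the median of these genes in all 12 libraries. By that count MARS2 was above it in 7 and FARS2 in 1. At the low end, CARS2, the cysteinyl enzyme, had 8.87% ± 3.91 in G1, and FARS2 had 1.82% ± 1.87 in G2. Of the 20 cytosolic members, 15 were above the median in no library by share and 11 in none per T base, where FARSA was above it in 6. How many of all genes were above the median in none or all of the libraries was not counted. NARS stood apart among the cytosolic members, with 30.9%, 30.0% and 34.1% T>C reads in G1 and 35.9%, 27.1% and 31.9% in Early_S, and was above the median in 11 of 12 libraries. The lowest cytosolic share in G1 was that of WARS, at 6.13% ± 0.770.

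Enzymes of the same amino acid can be set side by side as 16 pairs, with EPRS paired with both EARS2 and PARS2 and FARS2 with both FARSA and FARSB. In 6 pairs the cytosolic member had the lower share in all 12 libraries: HARS and HARS2, MARS and MARS2, EPRS and PARS2, VARS and VARS2, WARS and WARS2, and YARS and YARS2. In the tyrosyl pair the median difference over libraries was -36.1 percentage points (cytosolic minus mitochondrial), and in the valyl pair -3.22. CARS was higher than CARS2 in 9 of 12 libraries, NARS than NARS2 also in 9, TARS than TARS2 in 10 and FARSA than FARS2 in 12. Against FARSB, the other phenylalanyl subunit, FARS2 was higher in 6 of 12. The order thus turned round in some amino acids. A read covering more T bases has more chances to carry a conversion. Counted per T base, 4 of the 6 pairs kept the same order in all 12 libraries. Per T base IARS2 was above IARS in 5 libraries (10 by share) and RARS2 above RARS in 5 (7 by share). FARS2 was above FARSB in 8 (6 by share).

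**Figure D5:**
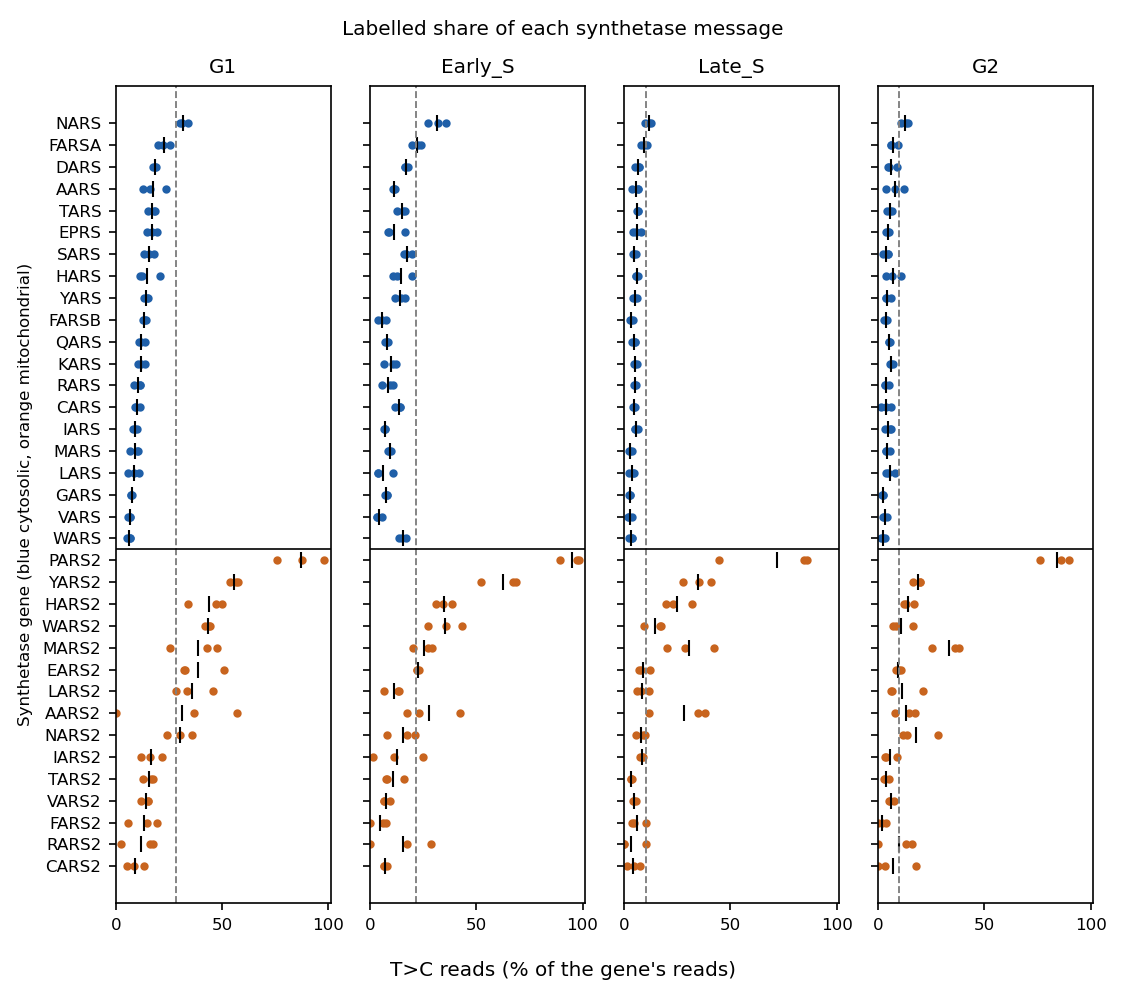
T>C reads as a percentage of reads for each of 35 synthetases (rows, cytosolic above mitochondrial) in the 4 phases; points are libraries, black ticks their means, and the dashed grey line is the median of all tested genes. PARS2 stays at 71.8% to 95.0% on average in all 4 phases, and WARS moves to the right in Early_S, to 15.3%.

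The labelled share of most members moved with the whole library, whose share was lower in Late_S and G2 than in G1 and Early_S. The test across phases was therefore made relative to all genes, by scaling T>C reads and other reads each among themselves, and it called SARS, WARS and YARS2, against 14.7% of all genes tested. WARS had 5.25%, 6.54% and 6.62% for G1, 13.8%, 17.1% and 15.1% for Early_S, 3.86%, 3.59% and 2.22% for Late_S and 3.09%, 2.08% and 1.16% for G2 (edgeR F test, adjusted p = 0.000319). Its share in No_alkylation was 0% to 1.45%, a range that holds its lowest G2 library. Every Early_S library was above every other phase library, while the share of the whole library was highest in G1. SARS had 15.6%, 13.4% and 17.7% for G1, 16.8%, 19.8% and 15.9% for Early_S, 4.69%, 4.06% and 5.83% for Late_S and 4.76%, 4.59% and 2.32% for G2 (adjusted p = 0.0464). YARS2 (adjusted p = 0.00232) had its highest mean in Early_S and its lowest in G2. Set against No_alkylation, the labelled share of all 35 tested members was higher in the alkylated libraries, against 83.8% of the 12909 genes tested. The smallest fitted log2 change in the ratio of T>C to other reads was 2.61 (FARSB, SE 0.43). No largest change is given, since FARS2, HARS2 and RARS2 had 0 T>C reads in every No_alkylation library and PARS2 at most 1.

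The parts of a gene did not always carry the same share. In QARS the region at chr3:49095932-49096079 near the 3′ end (coordinates of the files, hg38) held 81.6% of the gene's reads over the 12 phase libraries, of which 6.49% were T>C reads, whereas a region beginning at position 49098192 held 1.78% of the reads, of which 52.2% were T>C. In NARS the region at chr18:57600656-57601783 held 74.5% of the reads with 20.6% T>C, and a region beginning at 57605857 held 2.58% with 40.4%. RARS spread its reads over 14 regions, and its most covered region held 37.0% of them over the same 12 libraries. T>C reads of single regions were not counted in No_alkylation, so the background of these regions is not known. As a whole gene, QARS had 0.747% ± 0.0513 in No_alkylation and NARS 0.317% ± 0.164 (SD, n = 3 each). Whether the high regional shares come from the label was not tested. The annotation of these regions as exon or intron was not used here.

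No_alkylation libraries also differed from the phases in all reads. They had lower levels of 14 cytosolic members and higher levels of FARSA and LARS, and lower levels of EARS2, VARS2 and YARS2 with a higher level of TARS2, against 22.5% called higher and 21.0% lower among the 13972 genes tested. WARS had 61.6, 61.8 and 49.4 CPM in No_alkylation and a mean of 109 CPM for G1, 149 for Early_S, 131 for Late_S and 141 for G2 (log2 change -1.21 ± 0.09 against the mean of the phases, adjusted p = 5.05e-15). No No_alkylation library of WARS reached any phase library. Calls ended without No_alkylation replicate 2 for AARS (adjusted p = 0.263), without replicate 3 for VARS (0.171) and YARS2 (0.167), without replicate 2 or 3 for EARS2 (0.111 to 0.164), without 1 or 2 for TARS2 (0.0866 to 0.219) and without 1 or 3 for VARS2 (0.0755 to 0.336). Omission of the step and the unlabelled phase of these cells cannot be told apart.

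Genes around the synthetases were taken from lists chosen with earlier results of these data known. ATF4 itself had 630 to 776 CPM in Early_S, against 228 to 324 CPM in G1 (log2 change 1.33 ± 0.09, adjusted p = 2.3e-15), and its nascent level changed by 0.88 ± 0.11. ASNS, the asparagine synthetase gene and a known ATF4 target, had 196 to 264 CPM in Early_S, against 119 to 181 CPM in G1 (0.63 ± 0.11), and its nascent level changed by 2.27 ± 0.43. Of 21 tested genes of an ATF4 response list that holds both of these and no synthetase, 10 were called higher and 1 lower in Early_S than in G1 in steady-state level, with a median of 0.36, against 12.5% and 11.8% of all genes. In nascent level 11 of 20 were called higher and 0 lower, with a median of 0.78, against 3.69% and 1.48% of all genes. PSAT1, which makes phosphoserine for serine synthesis, changed by 2.55 ± 0.12 in steady-state level. SLC7A11, the cystine transporter, changed by 2.19 ± 0.15 and MTHFD2, of mitochondrial folate metabolism, by 1.26 ± 0.07. ATF3, a stress transcription factor, was not called there (-0.34 ± 0.19) and was lower in G2 than in G1 by a log2 change of -3.33 ± 0.21. MYC was lower in Early_S than in G1, with a log2 change of -0.62 ± 0.18.

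The scaffolds of the multisynthetase complex were not called between Early_S and G1 in steady-state level, with log2 changes of -0.12 ± 0.16 (AIMP1), -0.19 ± 0.09 (AIMP2) and -0.34 ± 0.17 (EEF1E1). Of 20 genes of tRNA maturation and export, 2 were called higher and 3 lower, with a median of 0.049, near the 12.5% and 11.8% of all genes. Among single genes of that list, TSEN15, of the tRNA splicing endonuclease, changed by 1.76 ± 0.12, and POP7 (-0.51 ± 0.10) and POP1 (-0.86 ± 0.25), of RNase P, were lower. XPOT, the tRNA exporter, was not called (0.37 ± 0.15, adjusted p = 0.0702), nor was XPO5 (0.04 ± 0.14). Of 6 elongation factor genes, EEF1A1 (0.69 ± 0.04) and EEF1A2 (0.22 ± 0.08), which bring charged tRNA to the ribosome, were called higher, while EEF1D (0.07 ± 0.07) and EEF2 (0.02 ± 0.06) were not called. Of 20 genes of mitochondrial translation and tRNA processing, 2 were called higher and 4 lower, with a median of -0.018, against the same 12.5% and 11.8% of all genes. Among them TRMT10C, a subunit of mitochondrial RNase P (-0.68 ± 0.15), MTRF1L, a release factor (-0.41 ± 0.11), and PUS1, a pseudouridine synthase (-0.40 ± 0.13), were lower, and MTFMT, which formylates the initiator tRNA (-0.25 ± 0.22), was not called. The 4 genes named had the smallest p of this list across phases, and the 2 called higher were not among them.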

How the data were processed

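RNA was measured by SLAM-seq on QuantSeq 3′ libraries in 15 samples. Per the file headers, the authors counted reads and T>C reads per region with slamdunk 0.2.4 on an Ensembl release 90 annotation of GRCh38 (hg38, per the submitters' processing notes); the deposited files give counts, a CPM column and a T>C conversion rate as a fraction, and no aligner beyond slamdunk is given in the sources used here. The deposited CPM was not used for tests. Counts were summed over a gene's regions. Groups follow the labels. edgeR 4.0.16 (R 4.3.3; TMM, filterByExpr with a minimum count of 10, quasi-likelihood tests) was fitted to all 12 phase libraries, separately for reads and T>C reads, with a read-kind by phase model for the labelled share; adjusted p-values are Benjamini-Hochberg over all genes tested, and SEs are the log2 change divided by the root of F. The No_alkylation comparisons used all 15 libraries. CPM values printed are counts over the effective library size of that read kind, scaled over the 12 phase libraries, or over all 15 for No_alkylation. Each library was counted once. Replicate pairs of each group differed by more than sampling noise, but that excess may be technical and does not show separate cultures. Scripts were tested on simulated data. The members and gene lists were chosen with earlier results of these data known. Named genes were all 36 members, ATF4, ASNS, XPOT, AIMP1, AIMP2, EEF1E1, MYC and up to 4 genes per list with the smallest p across phases. Alternatives were RLE size factors, no filter, DESeq2 1.42.0, the most covered region alone, T>C reads scaled by all reads, a replicate block, leaving out each library and, added after seeing the data, leaving out multimapped reads or PARS2 and YARS2.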

Additional observations from a re-analysis of the deposited data

How the results depend on the processing

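No value changed direction under any alternative run for a called member. For called members, 310 of their results under other settings kept the call and 8 lost it, and with 1 library left out 546 kept it and 75 lost it. These totals include the labelled share calls of 35 members against No_alkylation, which every run kept, and runs without a library of an uncompared phase. At least 1 alternative ended 7 of 17 steady-state calls for Early_S against G1, all 3 for Late_S against Early_S and 4 of 11 for G2 against G1. In nascent level it ended 3 of 6 calls for Early_S against G1 and the 1 for Late_S against Early_S. When T>C reads were scaled by all reads of a library, which carries the lower labelling of the later phases into the values, the nascent counts of called members were 25 across phases (6 as reported), 3 for Early_S against G1 (6), 18 for Late_S against Early_S (1) and 22 for G2 against G1 (0), and the labelled share count across phases was 27 (3); the median change of all genes was then -0.33, -0.91 and -1.27 in these 3 comparisons. DESeq2 called 6 members for Late_S against Early_S in steady-state level (3 as reported), 4 in nascent level (1), and 1 for G2 against Late_S in each (0). Without the low-count filter, 2 nascent members were called for Late_S against Early_S, and 1 steady-state member for G2 against Late_S. Same-numbered libraries of different phases had correlations of deviations of -0.0168 to 0.0922 (median 0.0136) in nascent levels. In steady-state levels they had -0.0166 to 0.0308 (median 0.0083). Libraries with different numbers had -0.0622 to 0.0405 (median -0.0024) in nascent and -0.0328 to 0.0189 (median -0.0029) in steady-state levels. The ranges overlap and the medians of same-numbered libraries were the higher, so a weak pairing by replicate number is not settled by these values. The replicate block gave 6 steady-state members for Late_S against Early_S and 1 for G2 against Late_S, and every other count stayed within 1.5 times that reported. With only the most covered region of each gene, the cytosolic labelled share in Late_S was 5.10% against 5.25%. Without PARS2 and YARS2, the mitochondrial share was 25.7% (G1), 16.02% (Early_S), 9.48% (Late_S) and 9.27% (G2). With 1 library left out, steady-state counts were 16 to 21 across phases, 12 to 17 for Early_S against G1, 0 to 5 for Late_S against Early_S, 0 to 1 for G2 against Late_S (1 without G2 replicate 1), 8 to 11 for G2 against G1 and 16 to 20 for No_alkylation. Nascent counts were 4 to 7 across phases, 3 to 6 for Early_S against G1, 0 to 2 for Late_S against Early_S (2 without any 1 of the G2 libraries), 0 to 0 for G2 against Late_S and 0 to 1 for G2 against G1 (1 without G2 replicate 2 or 3). The labelled share count across phases was 2 to 5 (5 without G2 replicate 1) and that above No_alkylation 35 to 35. The cause of these changes was not tested. T>C depth limits the mitochondrial members, whose median was 45.5 T>C reads per library.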
